A study of Mus musculus with 12 samples.

Results

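Egfl6, Stum, Insyn2b and Sprr2d are 4 genes measured in somatic support cells of the XX and XY mouse gonad around sex determination. They were taken by name: every probe set annotated to 1 of these 4 symbols was kept, which gave 4 probe sets, 1 per gene, out of 44238 probe sets and 17996 genes that were measured. The genes had been chosen by an earlier fit of these arrays, for large rises in XX cells to embryonic day 12.5 (E12.5) or for higher levels in XX than in XY cells at E12.5, so their values in those comparisons are given as a description, with no test. Cells sorted by flow cytometry from gonads of FVB mice were compared in 4 groups, XX at E12.5, XX at E11.5, XY at E12.5 and XY at E11.5. Each group held 3 pools of cells, and each pool was read on 1 array after RNA amplification in 2 rounds. All 4 groups carried the same transgenes, Tg(Tyr)3412ARpw and Tg(Sry-EGFP)92EI, the second a green fluorescent reporter built on Sry. The labels do not tell whether pools came from separate litters. A p-value here therefore covers only variation among these pools, which may be technical. In these bulk samples, fewer cells of a type and less RNA per cell cannot be told apart.

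The supporting lineage of the early gonad can follow either path: it becomes Sertoli cells where Sry switches on Sox9, or pregranulosa cells where Foxl2, Wnt4 and follistatin take over. Egfl6 encodes a secreted matrix protein with EGF-like repeats, a relative of nephronectin that binds integrins. Stum encodes a membrane protein whose Drosophila relative, stumble, is needed for mechanical sensing by proprioceptive neurons. Insyn2b encodes a relative of Insyn2a, a protein of the gephyrin scaffold at inhibitory synapses. Sprr2d encodes a small proline-rich protein, one of a clustered family best known as precursors of the cornified envelope of skin, which transglutaminases cross-link.

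The labels held on the arrays. Xist read 12.80 to 12.95 on the 6 XX arrays and 6.56 to 7.87 on the 6 XY arrays, all values being log2 signals of the brightest probe set. Sertoli markers (25 of 27 listed genes measured) lay -1.23 to -1.17 from their 12-array mean in XX at E12.5, against 1.79 to 1.95 in XY at E12.5. Pregranulosa markers (25 of 26) lay 0.94 to 1.01 from theirs in XX and -1.13 to -1.04 in XY at that day. The defining genes went the same way: Foxl2 averaged 11.09 ± 0.05 in XX at E12.5, against 7.79 ± 0.34 in XY, and Sox9 averaged 6.18 ± 0.22 in XX and 10.16 ± 0.12 in XY (SD, n = 3 each). Pool 2 of XX E11.5 stood apart, with endothelial markers 1.65, interstitial mesenchyme markers 1.46 and cell cycle genes 1.32 above their 12-array means. For the 4 genes, comparisons that use this pool are given with and without it.

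Egfl6 (Entrez gene 54156, on the X chromosome) read 9.36, 10.91 and 10.88 in the XX pools at E12.5, against 5.69, 6.95 and 7.02 in the XX pools at E11.5. In XY it read 7.28, 7.05 and 7.37 at E12.5, against 5.48, 6.18 and 5.12 at E11.5. The 3 XX pools at E12.5 lay above all others, pool 1 lowest among them. Pool 1 of XX E11.5 lay among the XY pools of E11.5, and pools 2 and 3 lay just under the XY pools of E12.5. The XX difference between days was 3.83 ± 0.48 log2 units (SE of the fit; 14.2-fold, 95% interval 6.84 to 29.7), and no other of the 17996 genes had a greater one. XX exceeded XY at E12.5 by 3.15 ± 0.48 (8.85-fold, 4.25 to 18.4). In XY the difference between days was 1.65 ± 0.48 (3.13-fold, 1.5 to 6.52), with E12.5 above E11.5 in all pools, and did not pass the threshold (limma, adjusted p = 0.074). It passed in 3 of the 8 alternative fits that left out no single pool (adjusted p = 0.038 to 0.0487), and without XX E12.5 pool 1 (adjusted p = 0.0355).

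**Figure D1:**
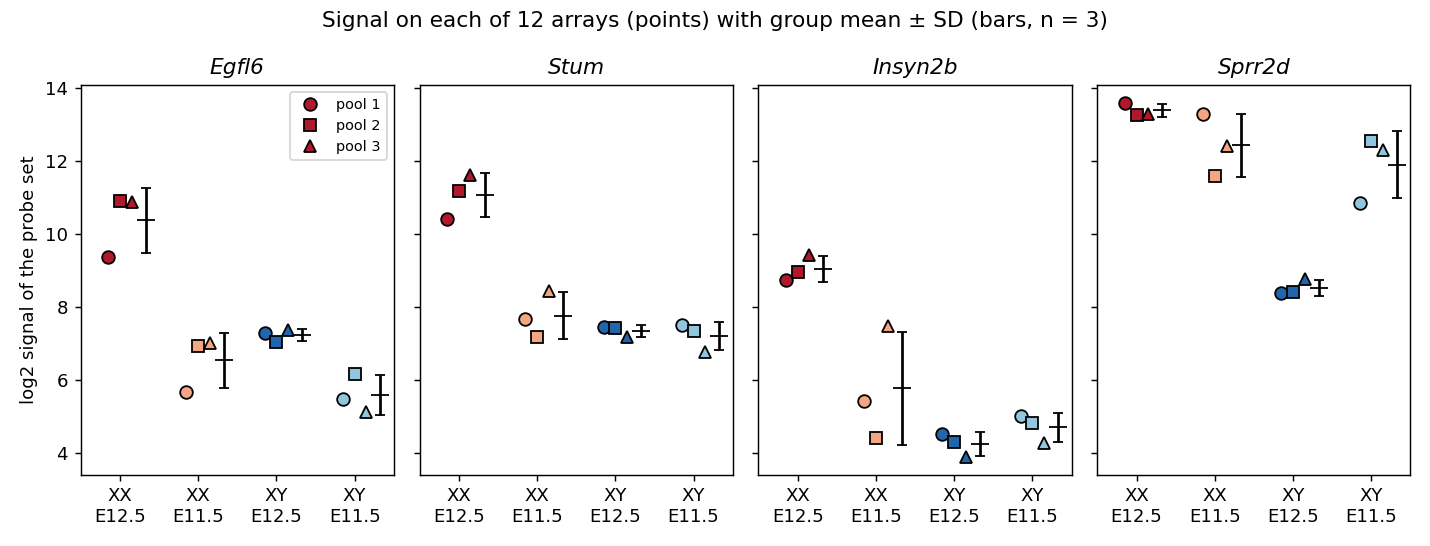
Log2 signal of each gene on each array (vertical axis) by group (horizontal axis); points are the 3 pools, and bars are the group mean ± SD (n = 3). Egfl6, Stum and Insyn2b stand highest in XX at E12.5 and low elsewhere, whereas Sprr2d is high in 3 groups and low in XY at E12.5 alone, at 8.38 to 8.77.

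Stum (Entrez gene 381310, on chromosome 1) was high in XX at E12.5 and low in the other groups. It read 10.42, 11.17 and 11.63 in XX at E12.5, against 7.68, 7.19 and 8.45 in XX at E11.5. In XY it read 7.47, 7.42 and 7.17 at E12.5, against 7.51, 7.35 and 6.76 at E11.5. Only the XX pools of E12.5 stood above 10, and both XY groups and pools 1 and 2 of XX E11.5 ran together between 6.76 and 7.68. XX at E12.5 exceeded XX at E11.5 by 3.30 ± 0.36 (9.84-fold, 5.61 to 17.2) and XY at E12.5 by 3.72 ± 0.36 (13.2-fold, 7.51 to 23.1). In XY the days differed by 0.15 ± 0.36 (95% interval -0.66 to 0.96, adjusted p = 0.88).

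The regions around the start sites of Egfl6 and Stum are shown because both genes went up on the same day in XX. Each window runs from 250 bases before to 50 after the start (RefSeq, GRCm38.p6), Egfl6 at chrX:166585667-166585966 and Stum at chr1:180483455-180483754, both on the minus strand and written 5′ to 3′ along the gene. Searched on both strands, TCAAAG for TCF/LEF factors, GTAAACA for forkhead factors, AAGGTCA for steroidogenic factor 1, AGATAA for GATA factors, TGTGGT for RUNX factors and TATAAA for the TATA box were found in neither, so no letters are in capitals. Over all 32851 windows of this length, 16%, 3.65%, 4.72%, 11.2%, 16.8% and 13.6% held these letters. G and C made up 65.3% of the Egfl6 window and 66.3% of the Stum window, against a median of 52.7% over all windows.
Egfl6: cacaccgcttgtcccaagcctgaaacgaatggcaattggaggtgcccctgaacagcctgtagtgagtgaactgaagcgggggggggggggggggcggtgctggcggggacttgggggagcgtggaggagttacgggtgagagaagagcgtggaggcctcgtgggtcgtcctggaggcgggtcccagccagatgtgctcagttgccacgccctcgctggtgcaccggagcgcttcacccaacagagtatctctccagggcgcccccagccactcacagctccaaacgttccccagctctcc
Stum: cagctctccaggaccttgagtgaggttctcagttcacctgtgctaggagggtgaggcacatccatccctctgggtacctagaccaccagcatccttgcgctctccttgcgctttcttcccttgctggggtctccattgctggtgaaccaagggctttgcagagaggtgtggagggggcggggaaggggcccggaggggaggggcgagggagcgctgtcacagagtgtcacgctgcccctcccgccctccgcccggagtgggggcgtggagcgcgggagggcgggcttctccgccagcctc

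Insyn2b (Entrez gene 574403, on chromosome 11) was high in XX at E12.5 and dim in both XY groups. It read 8.74, 8.95 and 9.44 in XX at E12.5, against 5.44, 4.43 and 7.48 in XX at E11.5. In XY it read 4.54, 4.32 and 3.90 at E12.5, against 5.03, 4.82 and 4.27 at E11.5. All XX pools of E12.5 were above all others, while XX E11.5 was spread widely (5.78 ± 1.55, SD, n = 3), pool 3 lying far above the other pools and pool 2 within the XY range. Probe sets of 3 Y-linked genes read 3.33 to 4.24 on XX arrays, which lack their target, and Insyn2b in XY E12.5 pool 3 lay in that range. These probe sets were picked for reading far higher on every XY array. The level without target was not measured for the probe sets of the 4 genes. The XX difference between days was 3.26 ± 0.61 (9.6-fold, 3.73 to 24.7), and it was 4.11 without XX E11.5 pool 3 and 2.59 without pool 2. At E12.5 XX exceeded XY by 4.79 ± 0.61 (27.7-fold, 10.7 to 71.3). This fold may understate the difference, since XY E12.5 pool 3 lay in the range of the Y-linked probe sets. The days in XY differed by -0.46 ± 0.61 (-1.82 to 0.91, adjusted p = 0.76).

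Sprr2d (Entrez gene 20758, on chromosome 3) did not share this course: its level was already high at E11.5 in both sexes and was far lower in XY at E12.5. It read 13.60, 13.27 and 13.29 in XX at E12.5, against 13.30, 11.58 and 12.41 in XX at E11.5, so the XX pools of the 2 days overlapped (difference 0.96 ± 0.47, 95% interval -0.10 to 2.01). In XY it read 8.38, 8.42 and 8.77 at E12.5, against 10.86, 12.56 and 12.29 at E11.5. Sprr2d fell in XY by 3.38 ± 0.47 on the log2 scale (10.4-fold lower at E12.5, 5.02 to 21.7; limma, adjusted p = 0.0031, lower in 3 of 3 pools than every E11.5 pool). The call was kept in all 20 alternative fits. This comparison was not used to choose the gene, though it shares the XY E12.5 pools with the comparison of the sexes that was. Choosing genes for XX above XY at E12.5 favours low values in those pools, and so a fall in XY. The p-value is therefore not independent of the choice. At E12.5 XX exceeded XY by 4.86 ± 0.47 (29.1-fold, 14.0 to 60.5). A rise in XX was therefore less clear for Sprr2d than for the other 3 genes on these arrays. The overlap of its XX pools came from XX E11.5 pool 1, at 13.30. Its XX difference between days was 1.39 without that pool and 0.53 without XX E11.5 pool 2. In the full fit, 870 of 17996 genes had a greater difference between days in XX than Sprr2d.

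**Figure D2:**
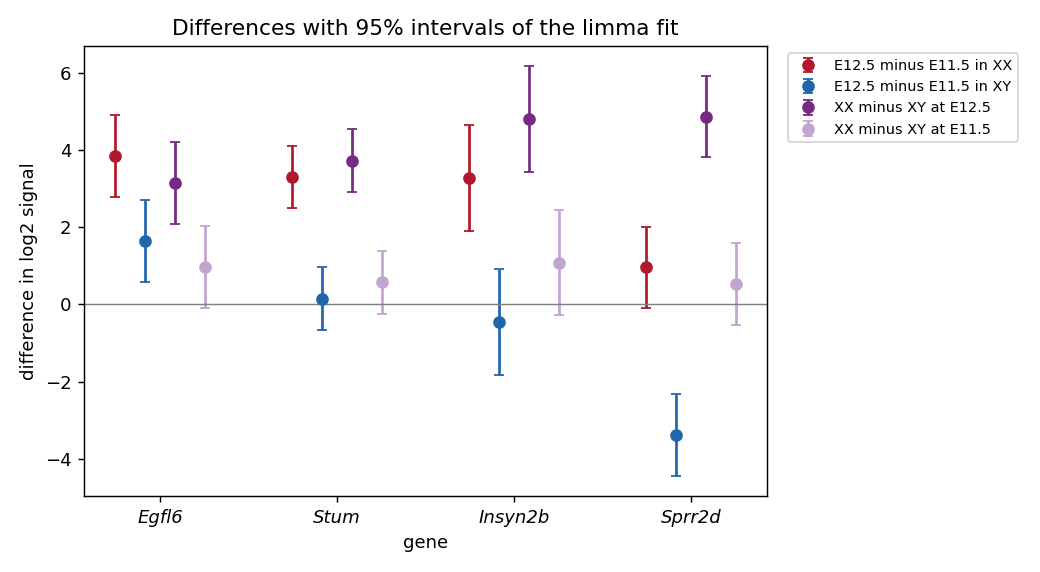
Difference in log2 signal (vertical axis) for the 4 genes (horizontal axis) in the 2 day comparisons and the 2 sex comparisons, with 95% intervals of the limma fit. Egfl6, Stum and Insyn2b have their large differences between days in XX (3.83, 3.30 and 3.26), and Sprr2d has its in XY (-3.38).

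The remaining comparison that did not enter the choice of genes, XX against XY at E11.5, had 0 calls among the 4 by limma (0 also at an unadjusted p under 0.05), where 0.0678% of all probe sets were called. Egfl6 differed by 0.96 ± 0.48 (95% interval -0.10 to 2.02, adjusted p = 0.76), Insyn2b by 1.07 ± 0.61 (-0.29 to 2.44, adjusted p = 0.77), Stum by 0.57 ± 0.36 (-0.24 to 1.38, adjusted p = 0.78) and Sprr2d by 0.53 ± 0.47 (-0.53 to 1.58, adjusted p = 0.82). The XX and XY pools overlapped for all 4, and this comparison shares its XX E11.5 pools with the XX day comparison. Without XX E11.5 pool 2 the differences were 0.76 for Egfl6, 1.75 for Insyn2b, 0.86 for Stum and 0.95 for Sprr2d. Between days in XX, leaving out that pool gave 4.03 for Egfl6, 3.01 for Stum, 2.59 for Insyn2b and 0.53 for Sprr2d. In the comparison of the sexes at E11.5, without XX E11.5 pool 3 the difference of Insyn2b was 0.22 and that of Stum 0.23. Without XY E11.5 pool 1 that of Sprr2d was 0.0048. Between days in XY, 1 of the 4 genes was called, Sprr2d, where 6.16% of all probe sets were called and 2.98% were lower.

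The order of the groups differed between the genes accordingly. Egfl6 ran from XX E12.5 (10.38 ± 0.89) through XY E12.5 (7.24 ± 0.17) and XX E11.5 (6.55 ± 0.75) to XY E11.5 (5.59 ± 0.54), and the last 2 overlapped. Stum ran from XX E12.5 (11.07 ± 0.61) to XX E11.5 (7.77 ± 0.64), XY E12.5 (7.35 ± 0.16) and XY E11.5 (7.21 ± 0.39), the lower 3 overlapping one another. Insyn2b had the same order of XX groups, with 9.04 ± 0.36 at E12.5 and 5.78 ± 1.55 at E11.5, over XY groups at 4.25 ± 0.32 (E12.5) and 4.71 ± 0.39 (E11.5), again with overlap among the lower 3. Sprr2d had 13.39 ± 0.18 and 12.43 ± 0.86 in XX at E12.5 and E11.5, and 8.52 ± 0.21 and 11.90 ± 0.91 in XY at E12.5 and E11.5, and XY E12.5 lay below every other group without overlap (SD, n = 3 throughout).

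Sprr2d sits in a run of related genes, so its neighbours in the family were read as well. The family had 8 other genes with a probe set of their own, and 0 of 8 was called by limma in each of the 4 comparisons of groups. Over all genes the share called was 11.1% between the sexes at E12.5, 0.0556% between them at E11.5, 3.76% between the days in XX and 7.01% between the days in XY. At an unadjusted p under 0.05 there were 2 of the 8 between days in XX, 1 between the sexes at E12.5 and 0 in the other comparisons. The same threshold took in 25.1% of all genes between days in XX, 26.1% between the sexes at E12.5, 20.8% between days in XY and 7.54% between the sexes at E11.5. Sprr2f, the next measured gene along the chromosome, averaged 5.52 ± 0.49 in XX at E12.5, against 4.21 ± 0.10 in XY, without overlap, and this difference of 1.30 ± 0.61 did not pass (adjusted p = 0.27). The XY E12.5 pools read 4.14 to 4.33 there. The Y-linked probe sets read 3.33 to 4.24 on XX arrays, but no level without target was measured for the Sprr2f probe set. The interval of the Sprr2f difference, -0.06 to 2.67, included 0, so a difference was not established. Whether the dim signal in XY understates it was not tested. Sprr2f averaged 5.99 in XX and 5.42 in XY at E11.5, so XY at E12.5 was its lowest group, as for Sprr2d. Sprr2h, Sprr2i and Sprr2k averaged 5.89, 5.25 and 7.41 in XX at E12.5 and 5.61, 4.97 and 7.27 in XY at E12.5. A probe set shared by Sprr2a1, Sprr2a2 and Sprr2a3 averaged 9.13 ± 0.54 in XX at E12.5, against 8.21 ± 0.09 in XY (adjusted p = 0.18). Those shared by Sprr2a1 and Sprr2a2 alone averaged 8.95 against 8.74 (adjusted p = 0.77) and 4.36 against 3.95 (adjusted p = 0.1) in the same groups. No probe set used here is annotated to Sprr2b or Sprr2e, and whether RNA of these copies adds to the Sprr2d signal was not tested.

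**Figure D3:**
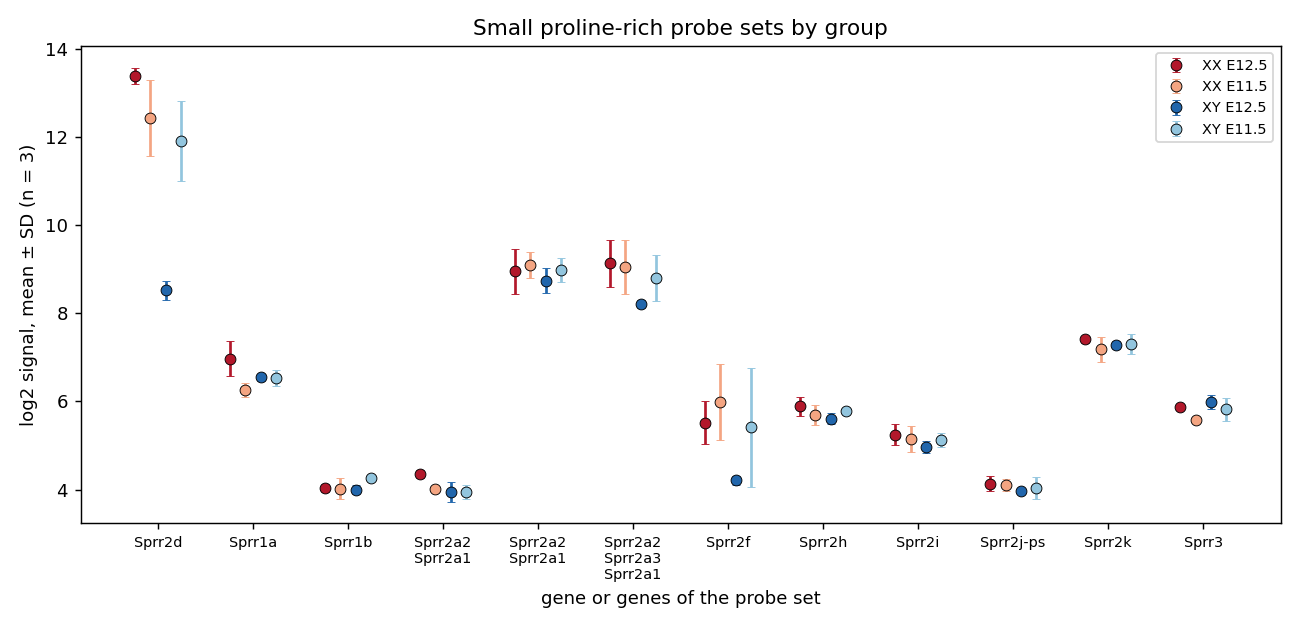
Log2 signal (vertical axis, mean ± SD, n = 3) of each small proline-rich probe set (horizontal axis) in the 4 groups. The Sprr2d probe set averages 8.52 in XY at E12.5 and 11.90 to 13.39 in the other groups, and the other probe sets show smaller gaps between their own groups. Sprr2f is also lowest in XY at E12.5, at 4.21.

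The start regions of Sprr2d (chr3:92338890-92339189) and Sprr2f (chr3:92364937-92365236), both on the plus strand, are shown because Sprr2d was the member called in XY and Sprr2f is the nearest measured copy. Both hold TATAAA, in capitals, 29 bases before the start, and none of the other letters searched. After pairwise alignment, 75.3% of the 300 bases of the Sprr2d window were identical in Sprr2f and 88.0% in Sprr2e, whose window also holds TATAAA at that place. The windows of the other copies ranged from 44.0% (Sprr2a1 and Sprr2a2) and 49.3% (Sprr2a3), through 63.7 to 68.0% (Sprr2b, Sprr2h and Sprr2k), to 78.0% (Sprr2i). The last bases of the Sprr2a windows resemble bases that lie before TATAAA in the Sprr2b window. The Sprr2a windows thus cover a stretch offset from the others, and their lower shares do not compare the same stretch. Identity between the transcripts themselves was not measured here.
Sprr2d: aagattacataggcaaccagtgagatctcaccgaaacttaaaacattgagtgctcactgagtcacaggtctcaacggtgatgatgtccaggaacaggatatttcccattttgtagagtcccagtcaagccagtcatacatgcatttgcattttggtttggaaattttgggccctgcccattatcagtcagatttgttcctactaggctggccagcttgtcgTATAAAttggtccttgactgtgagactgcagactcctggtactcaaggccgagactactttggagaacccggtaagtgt
Sprr2f: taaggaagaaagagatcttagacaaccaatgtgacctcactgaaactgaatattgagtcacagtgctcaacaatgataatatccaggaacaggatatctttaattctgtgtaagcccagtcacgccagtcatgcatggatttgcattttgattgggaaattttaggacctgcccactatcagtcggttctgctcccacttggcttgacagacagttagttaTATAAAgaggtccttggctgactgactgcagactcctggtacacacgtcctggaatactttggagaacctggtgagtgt

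Genes of the cornified envelope outside the family were measured at 30 of 34 listed, with 1 higher and 2 lower at E12.5 in XY (over all genes, 4.47% were higher and 2.54% lower). Tgm3, a transglutaminase that cross-links envelope proteins, was 1 of the 2 and had the course of Sprr2d. It read 12.02, 11.49 and 11.46 in XX at E12.5, against 8.11, 8.49 and 8.0 in XY at E12.5. At E11.5 it read 12.44, 10.99 and 11.85 in XX, against 11.37, 12.59 and 11.90 in XY. Tgm3 fell 13.5-fold in XY between the days (-3.75 ± 0.38, adjusted p = 0.00048), was 11-fold higher in XX than in XY at E12.5 (adjusted p = 0.00046), and was called in both comparisons at 2 of its 2 probe sets. Lor (loricrin, the main envelope protein, which lies 3 measured genes before Sprr2d) averaged 11.29 ± 0.55 in XX at E12.5, against 9.58 ± 0.15 in XY (3.27-fold, adjusted p = 0.038), a call that ended without any 1 of the 6 E12.5 pools (difference 1.40 to 1.92, adjusted p = 0.0605 to 0.126) and with the pool number as a block (adjusted p = 0.0694). Its change in XY was -1.65 ± 0.43 (adjusted p = 0.051) at the brightest probe set. Of the 3 probe sets of Lor, 1 was called between the days in XY and 2 between the sexes at E12.5. Krt14, a keratin of basal epidermis, fell 1.92-fold in XY at 1 of its 3 probe sets (adjusted p = 0.01, and 0.0642 when only the XY arrays were fitted). Evpl (envoplakin) was 2.36-fold higher in XX than in XY at E12.5 (adjusted p = 0.0081). Tchh (trichohyalin, a protein of the hair follicle's inner sheath) was the gene that rose in XY, 3.17-fold (9.09 at E12.5, against 7.43 at E11.5, adjusted p = 0.017). Its call ended when only the XY arrays were fitted (adjusted p = 0.0815) and when pool 1 of XY E11.5, or pool 1 or 2 of XY E12.5, was left out (adjusted p = 0.0503 to 0.0537). Between the days in XX, 1 gene was higher and 1 lower (over all genes, 2.55% and 1.21%). Grhl3, a transcription factor of the epidermal barrier, fell 2.74-fold (5.04 in XX at E12.5, against 6.50 in XX at E11.5, adjusted p = 0.014), a call that ended without XX E12.5 pool 3 (adjusted p = 0.0685). Evpl rose 1.98-fold in XX (adjusted p = 0.048), a call that ended in 11 of 19 alternatives, 9 of them with 1 array left out (adjusted p = 0.0578 to 0.164; any pool of XX E11.5 or XY E12.5, pools 2 and 3 of XX E12.5 and pool 3 of XY E11.5). Between the sexes at E12.5, 3 genes of the list were higher in XX and 0 lower (over all genes, 5.52% and 5.59%). The list's median difference between the days in XY was 0.01, and that of all genes 0.06.

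Inhibitory synapse genes were measured at 27 of 32 listed beside Insyn2b. At E12.5, 2 were higher in XX than in XY and 0 lower (5.52% and 5.59% of all genes), and both encode subunits of the GABA-A receptor. Gabra4 read 11.21, 10.96 and 11.28 in XX at E12.5, against 7.44, 5.53 and 7.41 in XY at E12.5 (20.5-fold, adjusted p = 0.00031). Gabrb1 read 12.03, 11.07 and 11.78 in XX, against 7.09, 6.65 and 8.47 in XY at that day (18.6-fold, adjusted p = 0.0015, called at 2 of its 4 probe sets). Gabra4 fell 12.7-fold in XY between the days (adjusted p = 0.0015) and was at 10.98 to 11.90 in XX and 10.19 to 10.65 in XY at E11.5, a course nearer to Sprr2d than to Insyn2b. Gabrb1 was at 9.13 to 10.32 in XX at E11.5, below all its XX pools of E12.5, and at 7.93 to 9.79 in XY at E11.5. Its brightest probe set was not called between the days in XX, while 1 of its 4 probe sets was. Gphn, the gephyrin scaffold, averaged 9.91 in XX, against 9.19 in XY, at E12.5 (0.72 ± 0.30, adjusted p = 0.22). Insyn2a, the closest relative of Insyn2b, averaged 8.94 in XX and 9.55 in XY (-0.60 ± 0.44, adjusted p = 0.53), and Insyn1 averaged 6.17 and 6.14 in the same groups (0.03 ± 0.17, adjusted p = 0.96).

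Genes related to Egfl6 and Stum were read in 3 lists. Of 17 measured EGF repeat and nephronectin family genes, 1 was higher and 3 lower in XX than in XY at E12.5 (over all genes, 5.52% were higher and 5.59% lower). Between the days, 3 of the 17 were higher and 0 lower at E12.5 in XY (all genes, 4.47% and 2.54%), and 0 were called by limma in XX (all genes, 2.55% and 1.21%). At an unadjusted p under 0.05 there were 4 of the 17 in XX and 7 in XY, against 25.1% and 20.8% of all genes. Those called in XY were Scube2 (12.8-fold, adjusted p = 0.0013), Megf6 (1.99-fold, adjusted p = 0.013) and Fbln2 (adjusted p = 0.018). Fbln2 was called at 1 of its 2 probe sets, as it was between the sexes at E12.5. The call of Megf6 ended when pool 3 of XY E11.5 was left out (adjusted p = 0.0559), and that of Fbln2 when that pool or pool 2 of XY E12.5 was left out or only the XY arrays were fitted (adjusted p = 0.0537 to 0.071). Scube2, a secreted protein that helps release hedgehog ligands, averaged 5.78 in XX and 9.50 in XY (13.2-fold lower in XX, adjusted p = 0.00073), and Fbln2, a fibulin of the matrix, 7.08 in XX and 10.38 in XY (9.84-fold lower, adjusted p = 0.00017). Vwce was 3.22-fold higher in XX (adjusted p = 0.0068). Npnt, nephronectin itself, read 8.70, 9.21 and 8.85 in XX at E12.5, against 6.94, 8.10 and 6.59 in XX at E11.5, without overlap, and the difference of 1.71 ± 0.57 did not pass (adjusted p = 0.12). Of 17 integrin subunits, 1 was lower in XX than in XY at E12.5, Itgb8 (4.61-fold, adjusted p = 0.037), a call that ended without any 1 of the 6 E12.5 pools (adjusted p = 0.0692 to 0.123), without XX E11.5 pool 3 (adjusted p = 0.052) and with the pool number as a block (adjusted p = 0.0698). Between the days limma called 0 of the 17 in XX and 0 in XY (3.76% and 7.01% of all genes). At an unadjusted p under 0.05 there were 3 in XX and 6 in XY, against 25.1% and 20.8% of all genes. Itga8, a subunit of the nephronectin receptor, averaged 8.21 in XX and 9.84 in XY (-1.63 ± 1.12, adjusted p = 0.49). Of 19 mechanosensory genes beside Stum, 1 was called between the sexes at E12.5: Kcnk2, a stretch-sensitive potassium channel, averaged 8.93 in XX and 12.31 in XY (10.5-fold lower in XX, adjusted p = 0.0063). Between the days, 2 of the 19 were called in XY and 1 in XX, all higher at E12.5. Kcnk2 rose 7.88-fold in XY (adjusted p = 0.016), a call that ended with only the XY arrays (adjusted p = 0.094) and without XY E12.5 pool 1 (adjusted p = 0.0538). Tmem63a, a channel opened by membrane stretch, rose 1.49-fold in XY (adjusted p = 0.03), a call that ended when pool 1 or 3 of XY E11.5 or any 1 pool of XY E12.5 was left out (adjusted p = 0.0666 to 0.107) and with a variance prior that follows the mean (adjusted p = 0.0606). Its relative Tmem63b rose 1.68-fold in XX at 1 of its 2 probe sets (8.14 at E12.5, against 7.39 at E11.5, adjusted p = 0.044). This call ended in 11 of 20 alternatives (adjusted p = 0.0516 to 0.158), 8 of them with 1 array left out: pools 2 and 3 of XX E11.5 and of XX E12.5, pool 3 of XY E11.5 and any pool of XY E12.5.

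Likeness of course was measured as Pearson's r over the 12 arrays between brightest probe sets, among 4396 named genes with an SD of at least 0.5, and is a description, since all points share the 4 groups. Egfl6, Stum and Insyn2b ran close to one another (r = 0.924 for Egfl6 with Stum, 0.964 for Stum with Insyn2b and 0.824 for Egfl6 with Insyn2b), and Sprr2d less so (0.296, 0.563 and 0.676 with Egfl6, Stum and Insyn2b). The gene most like Stum was Foxl2 (r = 0.979), followed by Trim7 (0.978), Foxl2os (0.976), Irs4 (0.972) and Cybrd1 (0.968). Foxl2 averaged 11.09 ± 0.05 in XX at E12.5, against 8.20 ± 0.63 in XX at E11.5, with the same order of XX E11.5 pools as Stum: pool 3 highest at 8.78, pool 1 at 8.26 and pool 2 lowest at 7.54.

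Insyn2b was most like Tdrp (r = 0.981), Irs4 (0.974), an insulin receptor substrate, Irx3 (0.969), an Iroquois homeobox gene, Rnf152 (0.968) and Stum. Egfl6 was most like Hvcn1 (0.977), a voltage-gated proton channel, Ano1 (0.954), a calcium-activated chloride channel, Cacna1d (0.951), a calcium channel subunit, Dmpk (0.944) and Akr1c14 (0.943). Ano1 shared with Egfl6 a higher level at E12.5 than at E11.5 in XY as well (8.52 ± 0.30 at E12.5 against 6.99 ± 0.35 at E11.5, SD, n = 3). Sprr2d was most like Slc37a2 (0.993), a sugar-phosphate transporter, Ccdc182 (0.985), Timm8a1 (0.984), of mitochondrial import, Msx1 (0.983), a homeobox gene, and Prkar1b (0.976), a regulatory subunit of protein kinase A. At E12.5 Slc37a2 averaged 10.10 in XX, against 7.0 in XY, and 9.54 in XX, against 9.07 in XY, at E11.5. The most opposed courses were those of Nipal1 (-0.932), Cyp26b1 (-0.923) and Nfxl1 (-0.917) for Egfl6, Robo1 (-0.955), Nipal1 (-0.941) and Olfml3 (-0.936) for Stum, Hpgd (-0.940), Mmp2 (-0.938) and Pcsk5 (-0.912) for Insyn2b, and Ankrd50 (-0.980), Tacc1 (-0.976) and Ptch1 (-0.974) for Sprr2d. Cyp26b1 degrades retinoic acid, Robo1 is a guidance receptor, and Ptch1 is the hedgehog receptor.

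**Figure D4:**
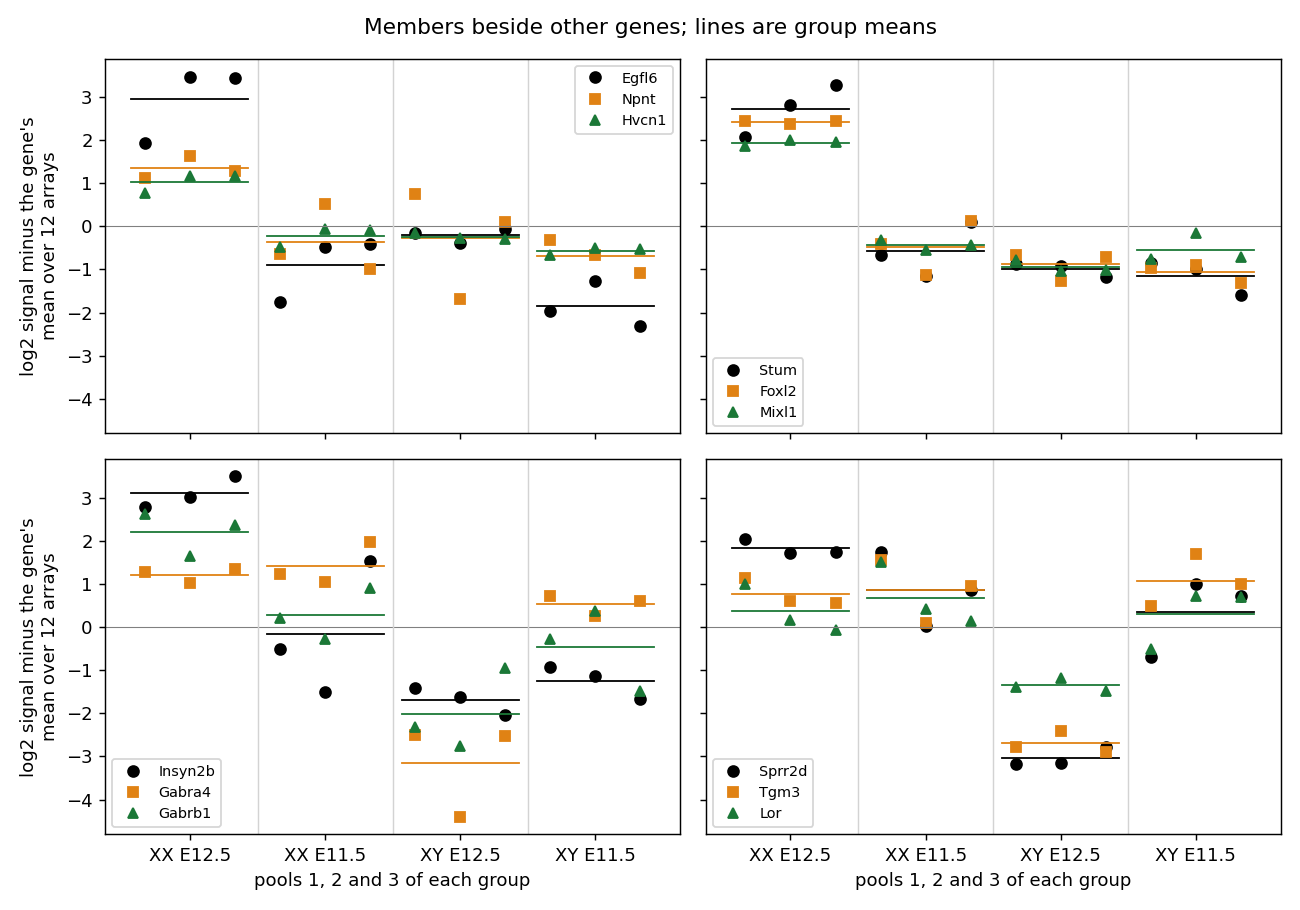
Log2 signal minus the gene's own mean over 12 arrays (vertical axis) for each pool of the 4 groups (horizontal axis); lines are group means. Stum, Foxl2 and Mixl1 are high in XX at E12.5 alone, and Sprr2d, Tgm3 and Lor are low in XY at E12.5 alone, while Gabra4 beside Insyn2b is as high in XX at E11.5 as at E12.5.

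The 3 measured protein-coding genes on each side of every member, by chromosome order in the RefSeq table of GRCm38.p6, gave 24 neighbours. Between days in XX, 2 of the 24 rose and 0 fell (2.55% and 1.21% of all genes). In XY, 3 rose and 0 fell (4.47% and 2.54% of all genes). At E12.5, 2 were higher and 1 lower in XX than in XY (5.52% and 5.59% of all genes). Mixl1, a homeobox gene 3 places after Stum, read 9.27, 9.40 and 9.36 in XX at E12.5, against 7.08, 6.85 and 6.97 in XX at E11.5. In XY it read 6.63, 6.36 and 6.39 at E12.5, against 6.64, 7.26 and 6.69 at E11.5. Mixl1 rose 5.2-fold in XX (2.38 ± 0.16, adjusted p = 0.00047), and XX exceeded XY 7.38-fold at E12.5 (adjusted p = 1.1e-05), with both calls kept in all 20 alternative fits. Parp1 and Lin9, which lie between Stum and Mixl1, were called in none of the 4 comparisons. Itpkb, on the other side of Stum, was 2.2-fold lower in XX than in XY at E12.5 (adjusted p = 0.0033, called at 1 of its 2 probe sets). Between the days Itpkb rose 1.96-fold in XY (adjusted p = 0.011), and its change in XX was -0.21 ± 0.18 (adjusted p = 0.51).

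Dock2, an activator of Rac in blood cells, spans Insyn2b and rose in both sexes, at 1 of its 3 probe sets. It averaged 8.44 ± 0.13 in XX at E12.5, against 7.29 ± 0.11 in XX at E11.5 (2.22-fold, adjusted p = 0.022), and 9.05 ± 0.38 in XY at E12.5, against 7.30 ± 0.32 in XY at E11.5 (3.37-fold, adjusted p = 0.0011). Its call in XX ended without pool 2 or 3 of XX E11.5 and without pool 2 or 3 of XX E12.5 (difference 1.10 to 1.14, adjusted p = 0.0611 to 0.0907). Macrophage and leukocyte markers (15 of 15) lay -0.15 to -0.05 from their 12-array mean in XX at E12.5, against -0.43 to 0.79 in XX at E11.5, and 0.33 to 0.55 in XY at E12.5, against -1.01 to -0.37 in XY at E11.5, and their part in the rise of Dock2 was not tested. The level of Dock2 thus went up between days where that of Insyn2b did (XX) and also where it did not (XY). Tceanc, the gene before Egfl6 on the X chromosome, rose 2.21-fold in XY (adjusted p = 0.016, and 0.0633 when only the XY arrays were fitted), and the other 5 neighbours of Egfl6 were not called.

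**Figure D5:**
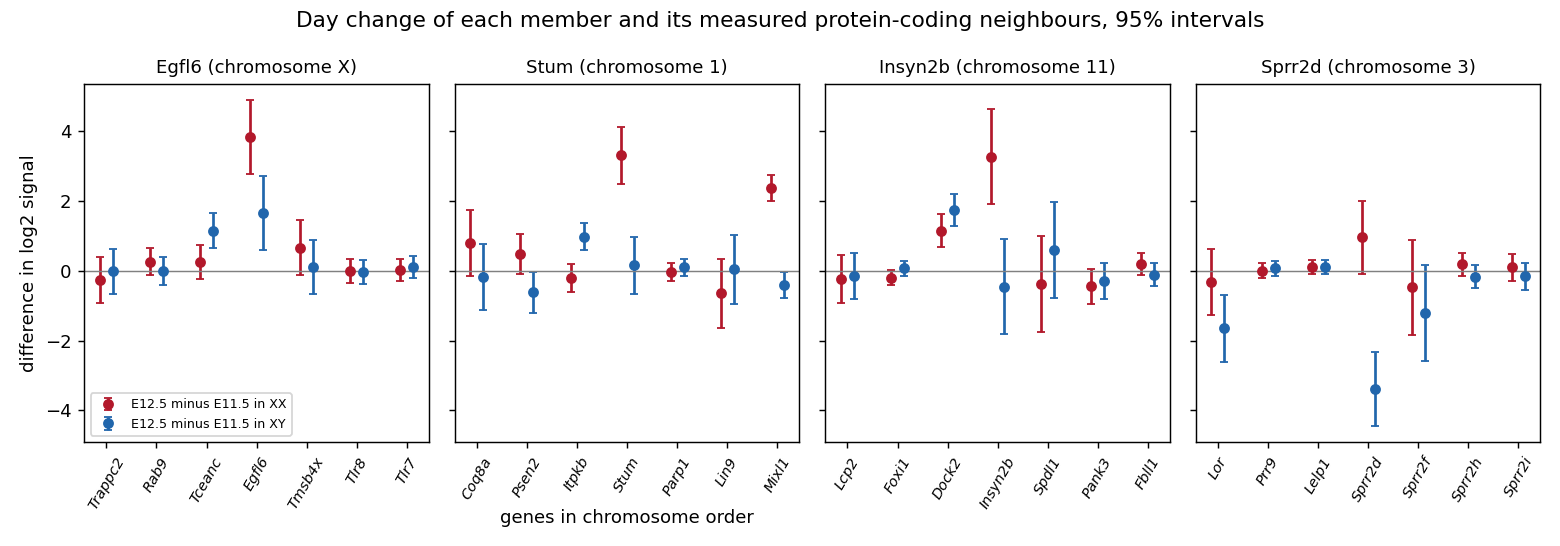
Difference between days in log2 signal (vertical axis, 95% intervals) in XX and XY for each member and its 6 measured neighbours in chromosome order (horizontal axis). Mixl1 rises with Stum in XX (2.38 beside 3.30), Dock2 rises in both sexes, and the neighbours of Egfl6 and the Sprr2 genes beside Sprr2d stay near 0 or have intervals that include it, except Tceanc in XY.

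Some marker lists of other cells moved with the XX E12.5 pools. Mesonephric and coelomic epithelium markers (14 of 15 measured) lay 0.19 to 0.77 from their 12-array mean in XX at E12.5, against -0.29 to -0.03 in XY at E12.5. At E11.5 they lay -0.43 to 0.10 from it in XX and -0.28 to -0.09 in XY. Of these genes, 2 were higher in XX and 0 lower at E12.5 (over all genes, 5.52% and 5.59%). The 2 were Krt7 and Emx2, and Emx2 is also listed among the pregranulosa markers. Cell cycle genes (24 of 26) lay -1.64, -0.28 and -0.55 from theirs in XX at E12.5, against 0.78 to 0.96 in XY at E12.5, pool 1 of XX E12.5 being the lowest of all 12 arrays and also the XX E12.5 pool with the least Egfl6, Stum and Insyn2b. Germ cell markers (16 of 18) lay between -0.20 and 0.53 in XX and between -0.11 and 0.54 in XY at E12.5, endothelial markers (18 of 18) between -0.43 and 0.06 in XX and between -0.31 and 0.31 in XY, and macrophage and leukocyte markers (15 of 15) between -0.15 and -0.05 in XX and between 0.33 and 0.55 in XY. Keratinocyte and cornified envelope genes other than the small proline-rich family lay between 0.05 and 0.16 in XX and between -0.15 and -0.12 in XY at E12.5. The part of these cell types in the values of the 4 genes was not tested.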

How the data were processed

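RNA of sorted somatic support cells was read on 12 arrays, 3 pools for each of 4 groups. The authors deposited 1 table of log2 signals, 1 value per probe set and array. Per the labels' protocols, a PicoPure kit gave the RNA, and a TargetAmp kit amplified and biotin-labelled it. Neither the normalization nor the log base is given in the sources used here: the largest value, 14.45, fits a 16-bit scanner only near base 2. Of 45037 probe sets, 798 were blank on every array and 1 on some, and 44238 were tested. Gene names came from the platform table (34328 probe sets with 1 symbol, 850 with several, 9060 with none), checked through Entrez identifiers against RefSeq (34126 matched). Medians of single arrays lay between 6.494 and 6.592. With 3 arrays a group, their number limits the precision.

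A limma 3.58.1 model (R 4.3.3) of 4 group means was fitted over all 12 arrays, with Benjamini-Hochberg adjustment over 44238 probe sets, two-sided, calls at 0.05; every p-value is from limma. It was tested on simulated data. A gene stands by its brightest probe set, and fold changes of dim probe sets may understate the change. Named genes are the members, the 5 most and 3 least alike in course, 3 measured neighbours on each side, called genes of each list, and 5 fate genes. Members and lists were chosen with earlier results of these data known. Start regions came from RefSeq windows, which 3 of the 4 members have. Same-numbered pools were not paired: correlations of their deviations ran from -0.40 to 0.23. Figures were drawn with matplotlib 3.10.9.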

Additional observations from a re-analysis of the deposited data

Results flagged for a closer look

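The day change in XX was set against the day change in XY in 1 model (limma, adjusted over 44238 probe sets) for 143 genes: the neighbours, the members of the pathway lists and the fate genes. It differed past the threshold for 7 of them. Over all genes, by the brightest probe set, 1.54% had a greater change in XX and 1.28% a smaller one. Over all probe sets 1.75% were called. Mixl1, near Stum, had a day change 2.78 ± 0.23 greater in XX than in XY (adjusted p = 0.00052), and Itpkb, on the other side of Stum, one 1.18 ± 0.25 smaller (-1.18, adjusted p = 0.045). Tgm3 had a difference of 3.65 ± 0.54 (adjusted p = 0.009), Gabra4 of 3.47 ± 0.64 (adjusted p = 0.026) and Scube2 of -3.18 ± 0.63 (adjusted p = 0.036). Of the fate genes, Foxl2 had 2.71 ± 0.40 (adjusted p = 0.0087) and Fst 5.07 ± 0.69 (adjusted p = 0.0054). Tgm3, Gabra4, Itpkb and Foxl2 were each called at 1 of 2 probe sets, and Fst at 2 of 2. Mixl1 and Scube2 have 1 probe set each. The calls of Mixl1, Tgm3, Foxl2 and Fst were kept in all 19 alternative fits, while that of Itpkb ended in 13 (-1.29 to -1.08; without any 1 array other than XX E11.5 pool 3, and in 2 others), that of Scube2 in 8 (-3.12 to -2.87, each with 1 array left out) and that of Gabra4 in 7 of them (3.29 to 3.60, each with 1 array left out). The arrays were pools 1 and 3 of XX E11.5, 2 and 3 of XY E11.5, 2 and 3 of XX E12.5 and 1 and 2 of XY E12.5 for Scube2. They were pools 1 and 2 of XX E11.5, 2 and 3 of XY E11.5 and all 3 of XX E12.5 for Gabra4.

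The members were chosen on the contrasts that make up this difference, so theirs are a description: 2.19 ± 0.67 for Egfl6, 3.15 ± 0.51 for Stum, 3.72 ± 0.87 for Insyn2b and 4.34 ± 0.67 for Sprr2d. Without XX E11.5 pool 2 they were 2.39 for Egfl6, 2.86 for Stum, 3.04 for Insyn2b and 3.91 for Sprr2d.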

How the results depend on the processing

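Sprr2d kept its fall in XY in every alternative, by -3.91 to -3.06 with 1 array left out in turn (adjusted p = 0.00109 to 0.0162) and by -3.38 with the pool number as a replicate block. Egfl6 in XY passed the threshold when the dimmer probe sets were left out (1.65), with array quality weights (1.60) and with only the arrays compared (1.65), and ran from 1.41 to 1.94 with 1 array left out. Stum in XY ran from -0.08 to 0.29, turning to -0.0764 without XY E11.5 pool 3. Insyn2b in XY ran from -0.67 to -0.28. At E11.5 no member was called between the sexes under any alternative. Insyn2b is itself among those dimmer probe sets and has no value there. Each member has 1 probe set, so averaging probe sets changes nothing.

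The number of called probe sets moved more. For the sexes at E11.5 it was 12 both with 1 probe set per gene and with only the arrays compared, and 23 to 57 with 1 array left out, against 30. For the days in XY it was 1430 with 1 probe set per gene and 1277 to 3077 with 1 array left out, against 2726. For the days in XX it was 2405 with array quality weights, 624 with only the arrays compared and 183 to 1945 with 1 array left out, against 1378. For the sexes at E12.5 it was 5794 with array quality weights and 2054 to 3765 with 1 array left out, against 3416. For the difference of day changes it was 403 to 1273 with 1 array left out, against 774. With 1 probe set per gene fewer features were tested, and with only the arrays compared fewer arrays gave the spread; other causes were not tested. Pairing by pool number was tried only as a replicate block, which gave 34, 2587, 1201, 3084 and 600 calls in these comparisons, in the same order. Among the calls printed here, the block ended those of Lor and Itgb8 between the sexes at E12.5 and that of Tmem63b between the days in XX.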

Other observations

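Pool 3 of XX E11.5 stood ahead of the other 2 XX pools of that day in several genes that were high in XX at E12.5. In pool 3, against pools 1 and 2, Insyn2b read 7.48 against 5.44 and 4.43, Stum 8.45 against 7.68 and 7.19, Irs4 6.93 against 5.47 and 5.66, Irx3 10.45 against 9.56 and 8.16, and Fst 12.12 against 10.68 and 9.63. Pregranulosa markers lay 0.47 from their 12-array mean in that pool, against 0.23 and -0.26 in pools 1 and 2. Egfl6 did not set it apart, with 7.02 against 5.69 and 6.95. Mixl1 did not either, with 6.97 against 7.08 and 6.85. These genes were picked after their values were seen, and no test was made.

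Sprr2d, Tgm3, Lor, Msx1 and Slc37a2 ordered the E11.5 pools in another way. In XX pool 1 they read 13.30, 12.44, 12.43, 10.44 and 10.28, the highest of the XX pools of that day, and in XY pool 1 they read 10.86, 11.37, 10.41, 8.73 and 8.5, the lowest of the XY pools. This order was also seen after the values were known, and no test was made.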
